A study of Mus musculus with 6 samples.

Results

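Genes of the hepatic acute phase response were followed in mouse liver RNA, 10 in all: the serum amyloid A genes Saa1, Saa2, Saa3 and Saa4, the orosomucoid genes Orm1, Orm2 and Orm3, the lipocalin Lcn2, haptoglobin (Hp) and hemopexin (Hpx). They were taken by gene symbol from a count table of 54532 genes, each symbol matched 1 row, and the 10 members were chosen by values measured in these libraries, namely their spread among vehicle livers and their difference between the groups. Their levels and differences between the groups are therefore given as a description, without a p value.

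Livers came from 6 male C57BL/6J mice with insulin resistance (IR) induced by a high-fat diet, which began at 8 weeks of age and lasted 6 weeks. All mice were fasted for 16 h. The IR insulin group (n = 3) then received 0.75 units of insulin per kg body weight by intraperitoneal injection, and the IR vehicle group (n = 3) received bovine serum albumin (BSA), in which the insulin was given. Livers were frozen 6 h later, each library came from 1 mouse, and the comparison asks which hepatic transcripts still respond to insulin in insulin-resistant mice. Both groups share the diet, the fast and the injection, and chow-fed mice were not analysed here.

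The libraries held 18449986 to 21827619 counts. Vehicle replicate 2 had a count for 16470 genes and the other 5 libraries for 18389 to 18874. Levels are given as CPM, in which counts are put on a common scale across libraries with the trimmed mean of M values (TMM). A log2 difference is the log2 ratio of the mean insulin level to the mean vehicle level, as fitted by edgeR. It is not a difference of mean log2 CPM, and a single high liver in a group weighs more in it. The livers carried hepatocyte transcripts in all 6 libraries, with 10 of 10 hepatocyte markers detected and a summed level of 80200 to 184027 CPM in vehicle livers and 66972 to 83408 CPM in insulin livers. Of 13377 genes tested, 383 (2.86%) passed the criteria of the study, which ask for an absolute log2 difference of 0.35 or more and an unadjusted p below 0.05. Of these, 134 were higher and 249 (1.86%) lower with insulin, and 91 were higher and 384 lower once an offset for GC content was fitted. No gene (0%) had an adjusted p under 0.05, and the smallest adjusted p was 0.852 (quasi-likelihood test of edgeR, Benjamini-Hochberg). DESeq2 gave 0 as well, and 383 genes had an unadjusted p under 0.05 in edgeR.

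In the acute phase response, hepatocytes change the plasma proteins that they secrete after injury or infection. Interleukin-6 and related cytokines act through the receptor subunit gp130 and the transcription factor STAT3, and interleukin-1 and tumour necrosis factor act through NF-κB. C/EBPβ and C/EBPδ act with these factors at many acute phase promoters. Serum amyloid A proteins travel on high-density lipoprotein, orosomucoids are plasma carriers of the lipocalin fold, lipocalin 2 sequesters bacterial siderophores, haptoglobin binds free haemoglobin and hemopexin binds free haem.

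The 10 genes fell into separate patterns across the 6 livers. In Saa1, Saa2, Saa3, Orm2 and Lcn2, vehicle replicate 1 was at or near the insulin level while vehicle replicates 2 and 3 were far lower. Orm1 and Hpx had the same low vehicle livers over a smaller range. Saa4, Orm3 and Hp varied by 2.22-fold at most within a group. Together the 10 genes summed to 40526, 14000.5 and 17350 CPM in vehicle replicates 1, 2 and 3. Their sum was 38290, 37606 and 46401 CPM in insulin replicates 1, 2 and 3. The insulin livers were thus close to one another and to vehicle replicate 1, and the other vehicle livers were lower.

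**Figure D1:**
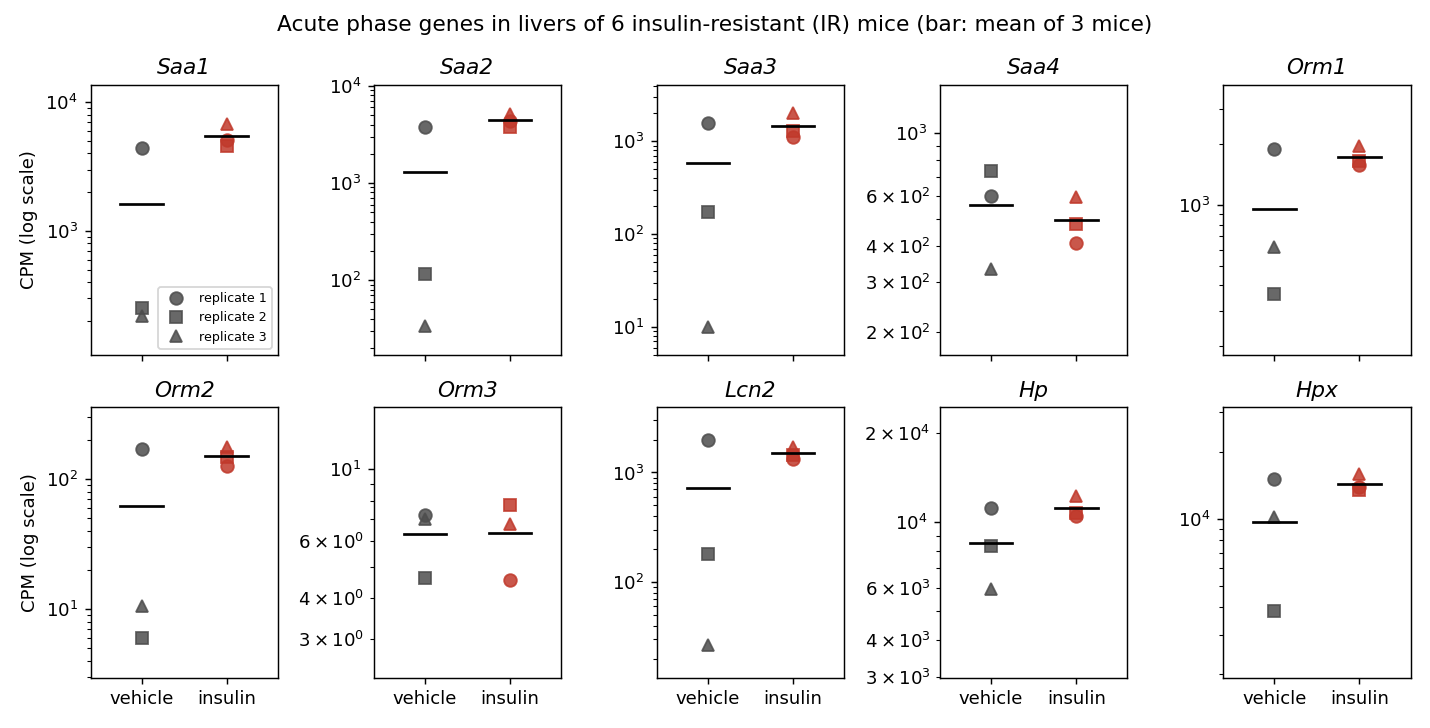
Level of each gene in each liver, in CPM on a log axis, with IR vehicle in grey and IR insulin in red. Symbols mark replicates 1 to 3 and bars the mean of 3 mice. Vehicle replicate 1 sits beside the insulin livers in most panels, and vehicle replicates 2 and 3 sit below them for Saa1, Saa2, Saa3, Orm1, Orm2, Lcn2, Hp and Hpx.

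Saa1 and Saa2 encode the main acute phase serum amyloids of the mouse. The genes lie back to back on chromosome 7 of GRCm38, Saa1 (ENSMUSG00000074115) at chr7:46740497-46742980 on the minus strand and Saa2 (ENSMUSG00000057465) at chr7:46751790-46754313 on the plus strand, with annotated starts 8810 bases apart. Their promoter windows, 250 bases before to 50 after the start of transcription in RefSeq (GRCm38.p6), are printed because they are nearly the same sequence: 287 of 299 aligned bases (96.0%) were identical. Capitals mark a C/EBP motif in both and, in Saa1, a kappa-B motif. The windows lie at chr7:46742931-46743230 on the minus strand for Saa1 and chr7:46751583-46751882 on the plus strand for Saa2, and both read 5′ to 3′.
Saa1: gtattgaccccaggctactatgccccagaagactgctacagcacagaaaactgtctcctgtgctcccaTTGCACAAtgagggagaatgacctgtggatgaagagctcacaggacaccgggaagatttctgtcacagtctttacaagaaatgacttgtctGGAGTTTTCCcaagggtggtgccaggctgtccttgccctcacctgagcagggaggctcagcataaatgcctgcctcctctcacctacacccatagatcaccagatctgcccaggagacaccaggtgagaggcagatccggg
Saa2: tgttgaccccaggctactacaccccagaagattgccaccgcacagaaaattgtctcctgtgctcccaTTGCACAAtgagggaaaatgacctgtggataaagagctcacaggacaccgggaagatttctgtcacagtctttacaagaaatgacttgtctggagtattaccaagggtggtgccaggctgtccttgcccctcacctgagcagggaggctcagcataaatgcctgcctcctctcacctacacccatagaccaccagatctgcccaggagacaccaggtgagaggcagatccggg

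In vehicle replicates 1, 2 and 3, in that order here and below, Saa1 stood at 4369.5, 252 and 217 CPM. Insulin replicates 1, 2 and 3 had 5070.2, 4570.2 and 6803 CPM. The insulin group was above every vehicle liver, by a narrow margin over vehicle replicate 1. The log2 difference was 1.77 ± 1.07 (SE, n = 3 and 3). Saa2 was at 3735, 116 and 33.7 CPM in the vehicle livers and at 4331, 3803 and 5122 CPM in the insulin livers. The vehicle livers stood in the same order with wider gaps between them, and its log2 difference was 1.77 ± 1.39. Saa1 and Saa2 were the only members of the 10 whose groups did not overlap, both higher with insulin. Over all genes tested, 6.25% had groups that did not overlap in that direction and 6.04% in the other.

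Saa1 and Saa2 moved apart where both were low. Counts of Saa1 were 1.17 times those of Saa2 in vehicle replicate 1 and 1.17, 1.20 and 1.33 times in the insulin livers. In vehicle replicates 2 and 3 the ratio was 2.18 and 6.44. The transcripts were 94.4% identical over 606 aligned bases, and 14.8% of 50-base windows of Saa1 and 9.12% of those of Saa2 were present unchanged in another annotated transcript, so short reads may be split between them. No window of 100 bases was shared. The sum of both genes, which does not depend on that split, was 8104, 368 and 251 CPM in vehicle livers and 9401, 8374 and 11925 CPM in insulin livers, with a log2 difference of 1.77 ± 1.17.

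Saa3 (ENSMUSG00000040026, chr7:46711998-46715700, minus strand) encodes a serum amyloid that macrophages and adipocytes also make. It was at 1595, 172 and 9.92 CPM in vehicle livers and at 1111, 1302 and 2031 CPM in insulin livers. Here vehicle replicate 1 lay inside the insulin range, so the groups overlapped, and vehicle replicate 3 was lowest by far. The log2 difference was 1.32 ± 1.29. The highest vehicle liver was 161-fold above the lowest, against 1.83-fold among insulin livers.

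Saa4 (ENSMUSG00000040017, chr7:46727998-46732603, minus strand) lies between Saa3 and Saa1 and encodes the constitutive serum amyloid, which is known for a weak response to inflammation. Its levels were 601, 735 and 332 CPM in vehicle livers and 409, 479 and 596 CPM in insulin livers. Vehicle replicate 2 was its highest liver, unlike any other member, and the groups overlapped. The log2 difference of −0.17 ± 0.34 was smaller than its SE and became 0.09 ± 0.30 without vehicle replicate 2 and −0.43 ± 0.26 without vehicle replicate 3. Across a cluster of 42316 bases, Saa1 counts were 12.4, 9.53 and 11.4 times those of Saa4 in the insulin livers and 7.27 times in vehicle replicate 1, but 0.343 and 0.655 times in vehicle replicates 2 and 3.

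The orosomucoid genes lie within 21319 bases of chromosome 4, Orm1 (ENSMUSG00000039196) at chr4:63344560-63348163, Orm3 (ENSMUSG00000028359) at chr4:63356162-63359511 and Orm2 (ENSMUSG00000061540) at chr4:63362449-63365878, all on the plus strand. Promoter windows from RefSeq (GRCm38.p6) are shown for Orm2 and Orm3, whose levels behaved differently in these livers although 264 of 295 aligned bases (89.5%) were identical. Capitals mark the C/EBP motif. The windows lie at chr4:63362199-63362498 for Orm2 and chr4:63355908-63356207 for Orm3, both on the plus strand and 5′ to 3′.
Orm2: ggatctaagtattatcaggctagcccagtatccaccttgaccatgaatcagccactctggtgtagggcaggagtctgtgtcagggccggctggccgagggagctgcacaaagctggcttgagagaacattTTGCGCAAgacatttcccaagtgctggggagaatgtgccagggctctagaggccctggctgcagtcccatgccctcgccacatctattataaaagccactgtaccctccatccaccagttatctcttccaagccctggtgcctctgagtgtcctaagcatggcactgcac
Orm3: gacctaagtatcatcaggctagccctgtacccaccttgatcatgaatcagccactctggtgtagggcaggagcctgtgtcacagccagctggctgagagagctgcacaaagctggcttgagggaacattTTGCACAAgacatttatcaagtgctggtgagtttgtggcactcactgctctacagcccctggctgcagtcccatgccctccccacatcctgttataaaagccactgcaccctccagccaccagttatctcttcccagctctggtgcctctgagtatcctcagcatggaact

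Orm1, the most abundant orosomucoid here, was at 1887, 361 and 619 CPM in vehicle livers and at 1569, 1659.8 and 1966 CPM in insulin livers. Vehicle replicate 1 was inside the insulin range and vehicle replicates 2 and 3 were below it. The log2 difference was 0.86 ± 0.56. Orm2 was at 170.2, 5.95 and 10.5 CPM in vehicle livers and at 127, 147 and 178 CPM in insulin livers, which is the same arrangement over a wider range. Its log2 difference was 1.27 ± 1.08, and its lowest value rested on 97 counts. Orm3 was at 7.24, 4.60 and 7.01 CPM in vehicle livers and at 4.55, 7.75 and 6.78 CPM in insulin livers. Its groups overlapped throughout, with a log2 difference of 0.02 ± 0.32 that turned negative without vehicle replicate 2 (−0.16), insulin replicate 2 (−0.15) or insulin replicate 3 (−0.02).

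The orosomucoid ratios followed the livers as those of the serum amyloids did. Orm1 counts were 11.1 times those of Orm2 in vehicle replicate 1 and 12.4, 11.3 and 11.1 times in the insulin livers. In vehicle replicates 2 and 3 they were 60.6 and 58.7 times those of Orm2. Orm2 counts were 23.5 times those of Orm3 in vehicle replicate 1 and 19.0 to 27.9 times in the insulin livers, but 1.293 and 1.503 times in vehicle replicates 2 and 3. Reads can also be shared here, since 20.4% of 50-base windows of Orm1 and 22.7% of those of Orm2 occurred in another transcript, against 3.59% for Orm3. At 100 bases, 6.95% of windows of Orm1 and of Orm2 were still shared, all with each other. Summed over the 3 genes, the level was 2064, 372 and 636 CPM in vehicle livers and 1701, 1815 and 2150.1 CPM in insulin livers, with a log2 difference of 0.88 ± 0.58.

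Lcn2 (ENSMUSG00000026822, chr2:32384633-32388252, minus strand), which neutrophils and adipocytes make as well as hepatocytes, was at 1963, 179.9 and 26.8 CPM in vehicle livers. In insulin livers it was at 1335, 1441 and 1715 CPM. Vehicle replicate 1 was its highest liver, above all insulin livers, and vehicle replicate 3 its lowest. The log2 difference was 1.05 ± 1.17, no larger than its SE. No 50-base window of Lcn2, Hp or Hpx occurred in another transcript.

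Hp (ENSMUSG00000031722, chr8:109575128-109579172, minus strand) encodes haptoglobin, which captures haemoglobin from broken red cells. It was at 11124, 8305 and 5954 CPM in vehicle livers and at 10465, 10715 and 12194 CPM in insulin livers. The vehicle livers ranked as they did for Lcn2, but over a narrow range, and vehicle replicate 1 was inside the insulin range. The log2 difference was 0.39 ± 0.33, and −0.07 with the GC offset. Hpx (ENSMUSG00000030895, chr7:105591613-105600137, minus strand) was at 15075, 3869 and 10139.9 CPM in vehicle livers and at 13868, 13480.4 and 15789.9 CPM in insulin livers. Its lowest liver was vehicle replicate 2 and not vehicle replicate 3, and its log2 difference was 0.57 ± 0.48.

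Per kilobase of the principal transcript, which allows genes to be set side by side, the insulin livers ranked Hpx first at 9593 ± 825 CPM per kb (SD, n = 3). Saa1 followed at 9000.2 ± 1924, Hp at 8271 ± 695 and Saa2 at 6777 ± 1018 CPM per kb. Each of these overlapped its neighbour in the order. Saa3 (2669.5 ± 875 CPM per kb) and Orm1 (2234 ± 268) overlapped each other, and Lcn2 (1636 ± 214) lay below both. Saa4 (236 ± 44.9) and Orm2 (194 ± 33.1) overlapped, and Orm3 was lowest at 8.23 ± 2.12 CPM per kb. In the vehicle group the means were 6467 ± 3747 for Hpx, 6291 ± 1924 for Hp, 2649 ± 3920 for Saa1, 1986 ± 3242 for Saa2, 1233 ± 1054 for Orm1, 1067 ± 1571 for Saa3 and 790.4 ± 1176 CPM per kb for Lcn2. For Saa1, Saa2, Saa3 and Lcn2, and for Orm2 given below, the SD was larger than the mean. Within each vehicle liver Saa1 was nevertheless above Saa2, Saa3 and Lcn2 per kilobase, while Saa2 and Saa3 changed places between livers. Saa4 (266 ± 98.1), Orm2 (80.3 ± 121) and Orm3 (8.13 ± 1.89) had the lowest vehicle means on the same scale.

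**Figure D2:**
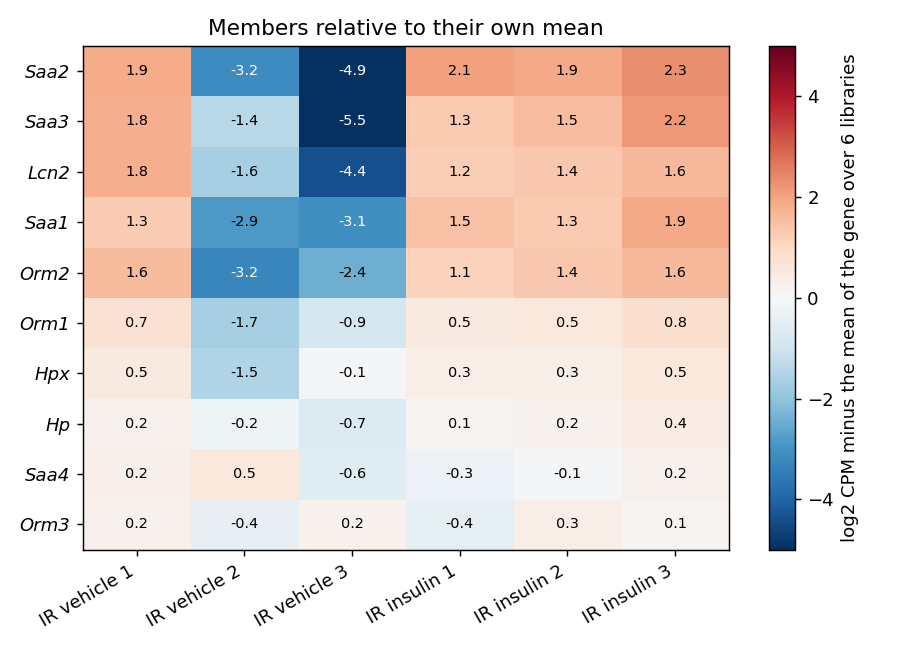
Each cell gives the log2 CPM of a gene in a liver minus the mean of that gene over the 6 livers. The 5 genes with the widest spread are placed uppermost. The 5 upper genes stand between 1.1 and 2.3 above their mean in vehicle replicate 1 and the insulin livers and below it in vehicle replicates 2 and 3, down to −5.5 for Saa3.

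Patterns were compared over the 6 livers by the root mean square (RMS) difference of log2 CPM after each gene was centred on its own mean. The smallest differences between members were those of Saa4 and Hp (0.37), Orm1 and Hpx (0.371) and Saa1 and Orm2 (0.374), none of which are paralogs. The measure depends on range, so genes that vary little come out close whatever their order of livers. Among genes with at least 10 CPM on average, the median difference was 0.494 from Hp and 2.14 from Saa1. In vehicle replicate 2, Saa4 was above its mean (0.534) and Hp below its own (−0.199). Saa3 and Lcn2 differed by 0.522, and Saa1 and Saa2 by 0.89. Orm2 and Orm3 differed by 1.93, Saa1 and Saa4 by 2.10, and Saa2 and Orm3, the most distant pair, by 2.88. By this measure the member closest to Saa1 was thus Orm2 and not its neighbour Saa2. The range among vehicle livers was 4.33 for Saa1, 4.81 for Orm2 and 6.79 for Saa2. In order of level, however, Saa2 ranked the 6 livers exactly as Saa1 did, and Orm2 did not.

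The spread within the vehicle group was wide for 5 members, Saa1, Saa2, Saa3, Orm2 and Lcn2. The range over the 3 vehicle livers, highest minus lowest in log2 CPM, was 7.31 for Saa3, and only 4 of the 13377 genes tested (0.0299%), Saa3 included, had a range at least as large. It was 6.79 for Saa2 (6 genes, 0.0449%), 6.19 for Lcn2 (18 genes, 0.135%), 4.81 for Orm2 (66 genes, 0.493%) and 4.33 for Saa1 (114 genes, 0.852%). Orm1 followed at 2.39, a range that 9.44% of genes reached, and Hpx at 1.96, which 2013 genes reached. Ranges for Saa4 (1.15), Hp (0.90) and Orm3 (0.64) were reached by 40.6%, 55.4% and 72.2% of genes.

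Among insulin livers the same ranges were 0.43 for Saa2, 0.36 for Lcn2, 0.57 for Saa1 and 0.87 for Saa3. Orm3 was the only member that varied more among insulin livers (0.76) than among vehicle livers. The median range over the 10 members was 3.36 in the vehicle group and 0.46 in the insulin group, against 0.988 and 0.348 over all genes tested. All 10 members passed the filter on low counts.

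**Figure D3:**
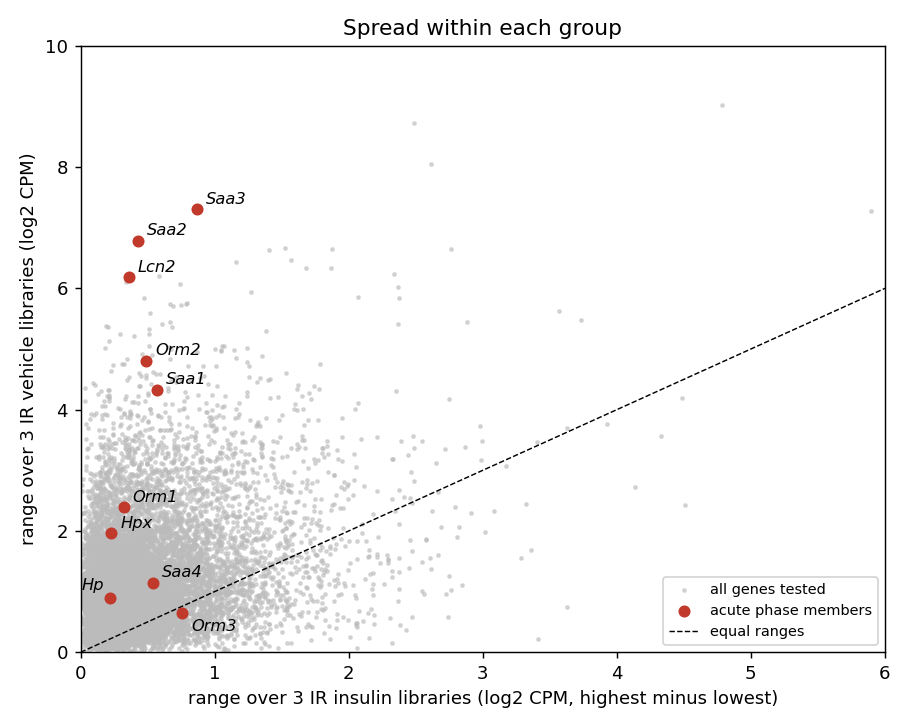
Range of log2 CPM over the 3 IR vehicle livers (vertical axis) against the range over the 3 IR insulin livers (horizontal axis) for all 13377 genes tested in grey and the 10 members in red. Saa3, Saa2, Lcn2, Orm2 and Saa1 lie at vehicle ranges of 4.33 to 7.31 with insulin ranges of 0.87 or less, and Orm3 alone lies under the line of equal ranges.

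For all 10 members the log2 difference between the groups was smaller than the range among vehicle livers. The difference compares mean levels, and the range compares log2 CPM of single livers. Of the 10 members, 9 had a positive log2 difference, where 48.6% of all genes tested did, and the members' median was 0.95 against −0.02 over all genes. For 3 members, Saa4, Orm3 and Lcn2, the difference was within its SE. The position of each vehicle liver against the insulin range was also counted. Vehicle replicate 1 was inside that range for 6 members, above it for 2 (Lcn2 and Saa4) and below it for 2 (Saa1 and Saa2), where 52.1% of all genes were inside. Vehicle replicate 2 was below the insulin range for 8 members (43.1% of all genes) and vehicle replicate 3 for 9 (35.9% of all genes). The lowest liver was vehicle replicate 3 for 6 members, vehicle replicate 2 for 3 and an insulin liver for Orm3.

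The differences depended on which vehicle liver was included, and for all members but Saa4 and Orm3 they were largest without vehicle replicate 1. Without vehicle replicate 1 the log2 difference was 4.55 ± 0.36 for Saa1, 5.89 ± 0.68 for Saa2, 4.03 ± 1.18 for Saa3, 4.19 ± 0.39 for Orm2 and 3.86 ± 0.84 for Lcn2. Orm1 reached 1.82 ± 0.34 and Hpx 1.04 ± 0.45. Without vehicle replicate 2 the values were 1.26 for Saa1, 1.23 for Saa2, 0.88 for Saa3, 0.74 for Orm2, 0.59 for Lcn2, 0.47 for Orm1 and 0.19 for Hpx. Without vehicle replicate 3 they were 1.25, 1.20, 0.75, 0.77, 0.48, 0.62 and 0.60 for the same genes. Hp was at 0.64, 0.38 and 0.20 without vehicle replicates 1, 2 and 3. Saa4 hardly moved without vehicle replicate 1 (−0.11) and stood at 0.09 and −0.43 without vehicle replicates 2 and 3. Orm3 stood at 0.13, −0.16 and 0.10 without vehicle replicates 1, 2 and 3, and moved farthest, to 0.21, without insulin replicate 1. The median over the members was 2.84 without vehicle replicate 1, 0.53 without vehicle replicate 2 and 0.61 without vehicle replicate 3. No liver is marked in the labels as unusual, and all 6 were kept.

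**Figure D4:**
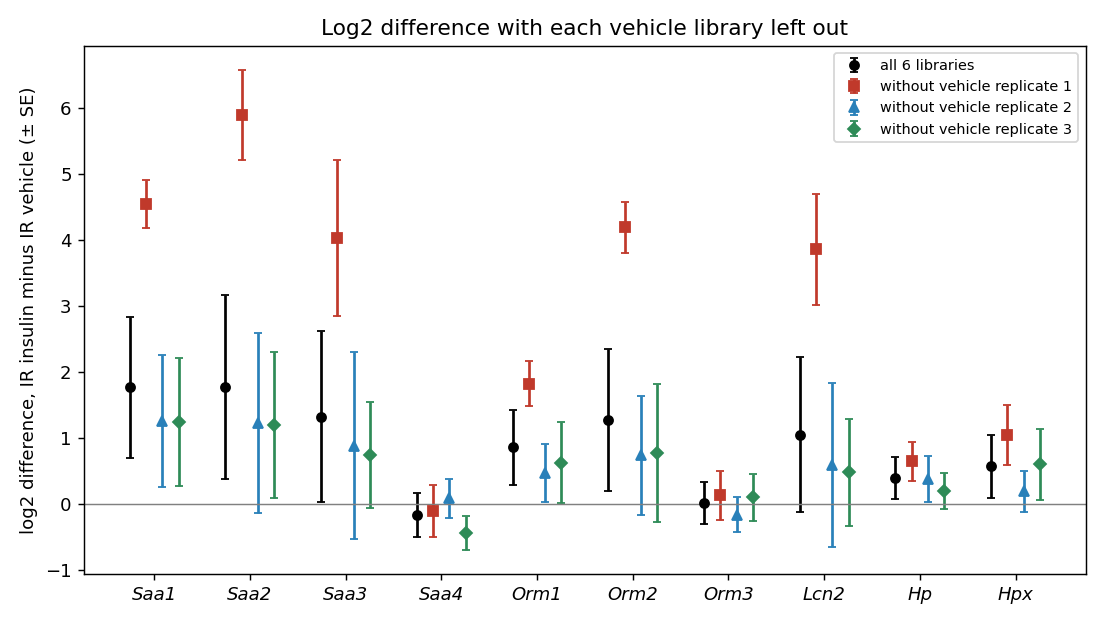
Log2 difference, IR insulin minus IR vehicle, of each gene with its SE, for all 6 libraries (black) and with vehicle replicate 1 (red), 2 (blue) or 3 (green) left out. Leaving out vehicle replicate 1 moves Saa1 from 1.77 to 4.55 and Saa2 from 1.77 to 5.89, and the values without vehicle replicate 2 or 3 lie at or below those of all 6 libraries for these genes.

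The promoter windows of 8 members were searched on both strands for short motifs that were chosen after the windows had been read. Orm1 and Hp were not among the RefSeq windows. A C/EBP motif, TTGCNNAA, was present in 8 of 8 windows, against 10.8% of 32851 windows of all genes. Because the letters were chosen after these windows were read, this count is a description and cannot test enrichment. Nor are the 8 windows separate cases, since those of Saa1 and Saa2 were 96.0% identical and those of Orm2 and Orm3 89.5%. It began 182 bases before the start site in Saa1, 183 in Saa2, 99 in Saa3, 120 in Orm2, 121 in Orm3, 216 in Lcn2 and 200 in Hpx. Saa4 held it at 245 and 52 bases before the start. A kappa-B motif was present in Saa1, 91 bases before the start site, and in Lcn2, 43 bases before, against 11.2% of all windows, and no matches of different motifs overlapped in a member. The STAT motif TTCNNNGAA was in 0 of 8 windows and in 8.3% of all windows, which says only that these letters were absent from these 300 bases. Orm3 and Saa4, whose levels varied least among these 8 genes in the vehicle group, held the C/EBP motif as the variable members did.

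Other genes of the response were read from lists chosen for the pathway. Of 17 further positive acute phase genes, all tested, 0 passed the study's criteria against 2.86% of all genes, 12 had a positive and 5 a negative log2 difference, and their median was 0.20. The smallest p values belonged to Cfb, which encodes complement factor B (log2 difference 0.81 ± 0.52), Serpina3n, a serine protease inhibitor (0.84 ± 0.54), and Cd14, the coreceptor for endotoxin (0.86 ± 0.58), and the adjusted p of each was 0.852 (edgeR quasi-likelihood test, Benjamini-Hochberg). Serpina3n was at 4170.1, 1486 and 856 CPM in vehicle livers and at 4265, 3714 and 3658 CPM in insulin livers, which placed vehicle replicate 1 with the insulin livers again. Without vehicle replicate 1, Cfb, Lbp and Serpina3n passed the criteria, all higher with insulin, and without vehicle replicate 3 Crp did, lower with insulin. Over all genes, 1349 of 13750 passed without vehicle replicate 1 and 888 of 13634 without vehicle replicate 3. Crp and Steap4, chosen after their values were seen, were highest in vehicle replicate 2 and lowest in vehicle replicate 3. Crp, which encodes C-reactive protein, was at 1684, 5093 and 370.2 CPM in vehicle livers and 1149.8 to 1361 CPM in insulin livers, and the metalloreductase gene Steap4 was at 2488, 4786 and 77.4 CPM against 1126.5 to 2723 CPM.

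Negative acute phase genes encode plasma proteins whose synthesis falls during inflammation. Of 11 tested, 0 passed the criteria, 3 were higher and 8 lower with insulin, and the median log2 difference was −0.43. The smallest p values were those of Alb (albumin, −0.89 ± 0.46), Ttr (transthyretin, −0.48 ± 0.26) and Gc (vitamin D binding protein, −0.51 ± 0.28), each with an adjusted p of 0.852 (edgeR, Benjamini-Hochberg). Alb was at 48158, 138554 and 72891 CPM in vehicle livers and at 48998, 52960.0 and 38255 CPM in insulin livers, so that it was highest in vehicle replicate 2. Without vehicle replicate 1, 4 of these genes passed the criteria (Alb, Gc, Rbp4 and Trf, all lower with insulin), and 1 did without vehicle replicate 2 (Igfals) or vehicle replicate 3 (Trf), also lower. Over all genes, 1349 of 13750, 508 of 13760 and 888 of 13634 passed in these fits, in the same order.

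Of 28 genes for cytokines, their receptors and downstream factors, 26 were tested and 3 passed the criteria, all lower with insulin against 1.86% of all genes in that direction. They encode receptor subunits. Lifr, of the leukaemia inhibitory factor receptor, had a log2 difference of −0.94 ± 0.38. Osmr, of the oncostatin M receptor, had −0.91 ± 0.39, and Il1rap, of the interleukin-1 receptor, −0.69 ± 0.30, and the adjusted p of all 3 was 0.852 (edgeR, Benjamini-Hochberg). Each was highest in vehicle replicate 2, Lifr at 406 CPM against 119 to 182 CPM in the other livers, Osmr at 14.4 against 4.29 to 6.68 CPM and Il1rap at 269 against 107 to 185 CPM. None of the 26 passed without vehicle replicate 2 or without any single insulin library. Without vehicle replicate 1, 6 did (3 higher and 3 lower), and without vehicle replicate 3, 3 did (Lifr, Osmr and Nr3c1, all lower). Over all genes, 1349 of 13750, 508 of 13760 and 888 of 13634 passed without vehicle replicates 1, 2 and 3, and 99 to 143 without an insulin library. Il6 was at 0.191 CPM or less in every liver and was not tested, and Osm was not tested either. Chosen after its values were seen, Cebpb, which encodes C/EBPβ, was at 186, 9.94 and 269.7 CPM in vehicle livers and 154 to 192 CPM in insulin livers, so that it was lowest in vehicle replicate 2 and highest in vehicle replicate 3, both of which had low Saa1.

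Of 10 genes for receptors of these proteins and for haem clearance, 9 were tested and 0 passed the criteria, with 4 higher, 5 lower and a median log2 difference of −0.19. The 3 smallest p values were those of Lrp1, a receptor for hemopexin and haem (0.40 ± 0.23), Hmox1, haem oxygenase 1 (0.91 ± 0.59), and Tlr4, the endotoxin receptor (−0.54 ± 0.51), with adjusted p of 0.852 or 0.853 (edgeR, Benjamini-Hochberg). Without vehicle replicate 1, Hmox1 passed the criteria, higher with insulin, in a fit where 1349 of 13750 genes passed.

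Levels of other cell types were read beside the members, since in bulk liver fewer cells of a type cannot be told apart from less RNA per cell. The 12 neutrophil markers summed to 50.2, 81.2 and 5.20 CPM in vehicle livers and to 76.6, 35.1 and 32.7 CPM in insulin livers. The sum was lowest in vehicle replicate 3, where Lcn2 and Saa3 were also lowest, and highest in vehicle replicate 2, where both were low. Most of the sum in vehicle replicate 2 was S100a8, at 50.3 CPM. The other tested markers, S100a9, Retnlg, Cxcr2, Csf3r and Mmp8, were each highest in insulin replicate 1. The defining markers Mpo, Elane, Ly6g, Camp, Ngp and Ltf were at 0.476 CPM or less in every liver and were not tested. Of the 6 markers tested 0 passed the criteria, with the smallest p for Cxcr2 (0.80 ± 0.76), Csf3r (0.52 ± 0.54) and Retnlg (0.59 ± 0.94).

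The 9 macrophage and Kupffer cell markers summed to 384, 367 and 469 CPM in vehicle livers and 637, 361 and 349 CPM in insulin livers, with 0 past the criteria. Within this list, Marco, a scavenger receptor of macrophages, was at 74.2, 7.37 and 9.11 CPM in vehicle livers and at 135, 58.7 and 65.8 CPM in insulin livers (1.51 ± 0.86). As for Saa1, vehicle replicates 2 and 3 were far below the other livers, whereas Timd4 (−0.39 ± 0.28) and Lyz2 (−0.31 ± 0.24) had negative differences. The 6 adipocyte markers summed to 64.1, 26.6 and 1.48 CPM in vehicle livers and 155, 97.3 and 26.98 CPM in insulin livers, mostly from Cfd except in vehicle replicate 3, where Cfd was at 0.143 and Adrb3 at 1.29 CPM. Lep was at 0 and Adipoq, Plin1 and Retn were at 0.0866 CPM or less in every liver. Neither of the adipocyte markers tested, Cfd (1.61 ± 1.31) and Adrb3 (1.05 ± 0.94), passed the criteria. The 9 markers of stellate, endothelial and bile duct cells summed to 245 to 322 CPM in vehicle livers and 207 to 291 CPM in insulin livers. None of the 8 tested passed, and the smallest p values were those of Lyve1 (−0.42 ± 0.24), Krt7 (0.69 ± 0.996) and Dcn (−0.19 ± 0.29). The part of these cells in the members' levels was not tested.

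Among hepatocyte markers 1 of 10 passed the criteria, Cyp3a11, a drug-metabolizing cytochrome P450, which was lower with insulin (−1.76 ± 0.71, adjusted p = 0.852, edgeR, Benjamini-Hochberg). It stood at 614, 1539.9 and 5084 CPM in vehicle livers and 475 to 972 CPM in insulin livers. The hepatocyte sum was highest in vehicle replicate 2, at 184027 CPM, next in vehicle replicate 3, at 121984 CPM, and 80200 CPM in vehicle replicate 1. Alb, itself listed as a negative acute phase gene, made up most of each sum, at 48158, 138554 and 72891 CPM in vehicle livers. The sum is therefore not a measure of hepatocyte content alone. Among vehicle livers, Apoa1, Tat, Serpina1c and Hnf4a were lowest in vehicle replicate 2 and Apob in vehicle replicate 3. The other markers were lowest in vehicle replicate 1, which had the highest summed level of the 10 members among vehicle livers. The part of hepatocyte content in the members' levels was not tested.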

How the data were processed

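Liver RNA of 6 mice was sequenced, 3 given insulin and 3 given the BSA vehicle. The deposited table holds whole-number read counts per gene, left by the authors without normalization or pooling. According to the methods of the study, libraries were made with the NEBNext Ultra RNA kit, and per the labels reads were aligned with Bowtie2 2.2.3 to mm10 (GRCm38). The counting program, its annotation, the read length and the use of strand are not given in the sources used here. An aligner that does not split reads at introns can lose reads over exon junctions, and reads of near-identical paralogs may be split or lost. None of the 10 members overlaps another annotated gene.

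Groups and replicate numbers came from the sample titles. Library totals were 18449986 to 21827619 counts. P values test the difference between the groups against the variation between mice, with 3 mice per group. That variation was estimated for each gene with information from all genes kept. Genes were kept by filterByExpr (minimum count 10, minimum total 15), which left 13377, and the 2 groups were compared in edgeR 4.0.16 (R 4.3.3; glmQLFit and glmQLFTest) with TMM factors, no covariate and Benjamini-Hochberg adjustment over all genes kept. The common biological coefficient of variation was 0.357. The criteria stated by the study, an absolute log2 difference of 0.35 or more and an unadjusted p below 0.05, were applied to that fit. The study used DESeq2, and DESeq2 1.42.0 was an alternative here. Log2 CPM values used a prior count of 2. The scripts were tested on simulated counts with known changes.

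Positions, transcripts and lengths came from GENCODE release 21 for mouse, which held 54495 of 54532 gene identifiers (99.9%), and lengths are those of the longest principal transcript. Promoter windows came from RefSeq. The GC offset was a loess curve (span 0.5) per library. Other alternatives were RLE and upper-quartile factors, no filter, the replicate number as a block, summed paralogs, and leaving out each library. The members and gene lists were chosen with earlier results of these data known. Named genes are the members and, in each list, the genes past the criteria and the 3 with the smallest p. Also named are the 5 genes with at least 10 CPM on average whose pattern was most like that of Saa1, Orm2 and Hp. Any other gene was chosen after its values were seen, and a motif search used letters chosen in the same way.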

Additional observations from a re-analysis of the deposited data

How the results depend on the processing

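The count of genes at an adjusted p under 0.05 was 0 in every alternative. The count past the study's criteria, 383, was 742 of 23040 genes with no filter on low counts and ran from 99 (without insulin replicate 1) to 1349 (without vehicle replicate 1) when a library was left out, with 508 without vehicle replicate 2, 888 without vehicle replicate 3, 143 without insulin replicate 2 and 120 without insulin replicate 3. DESeq2 gave 507. Over the same omissions the members' median log2 difference ran from 0.53 to 2.84, the other acute phase genes past the criteria from 0 to 3, the negative acute phase genes from 0 to 4, the cytokine, receptor and factor genes from 0 to 6, and the receptor and haem clearance genes from 0 to 1. The cytokine, receptor and factor genes past the criteria, 3 with TMM and the filter, were 1 with upper-quartile factors and 5 with no filter (2 higher, 3 lower). Negative acute phase genes past the criteria, 0 in the same fit, were 1 with the GC offset (Igfals) and 3 with DESeq2 (Alb, Gc and Ttr), all lower with insulin. The sample titles do not say whether the replicate numbers pair the mice. Deviations of livers with the same number correlated at −0.04, 0.07 and 0.02, and 3 of 6 livers correlated best with their own number. These values show no clear pairing but cannot settle how the mice were handled. The replicate block gave 321 genes past the criteria (203 higher, 118 lower), 2 other acute phase genes (Cd14 and Serpina3n) and 1 receptor or haem clearance gene (Hmox1), all higher with insulin. Among the cytokine, receptor and factor genes it gave 2, Tnf and Nfkb2, both higher, and none of Lifr, Osmr and Il1rap. Tnf was near the floor, at 0.740, 0.307 and 0 CPM in vehicle livers and 0.646 to 1.62 CPM in insulin livers. With the GC offset and the replicate block there were 335 genes (132 higher, 203 lower), 2 other acute phase genes (Cd14 and Il1rn), 3 cytokine, receptor and factor genes (Tnf and Nfkb2 higher, Lifr lower), 1 negative acute phase gene (Igfals) and 1 receptor or haem clearance gene (Hmox1). The members' median was 2.06 with the block and 1.81 with both. With a block, the log2 difference is fitted within replicate numbers and is no longer a ratio of group means. These medians are therefore not like for like with those of fits without a block. The cause of the changes between settings was not tested. The fewest counts behind a member's value were those of Orm3, 75 to 179 per library, and of Orm2 in vehicle replicates 2 and 3, with 97 and 221.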

Other observations

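Genes other than the members were ranked by the likeness of their pattern across the 6 livers to that of Saa1, Orm2 or Hp. Likeness was the RMS difference of centred log2 CPM over 6 libraries, among 7414 genes with at least 10 CPM on average, and is a description of these livers. The gene closest to Saa1 was Ccl5, which encodes a chemokine of T cells and macrophages, with a difference of 0.493 where the median gene had 2.14. Ccl5 was at 30.7, 0.859 and 1.48 CPM in vehicle livers and at 23.5, 34.1 and 21.3 CPM in insulin livers. It was also closest to Orm2, with a difference of 0.295 where the median gene had 2.07.

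Next to Saa1 came the kinase gene Aatk (0.682), Marco (0.731), Clstn3 (0.873) and Derl3 (0.918), and next to Orm2 came Aatk (0.576), Clstn3 (0.702), Marco (0.708) and Cidec (0.873), which encodes a lipid droplet protein. Cidec was at 105, 11.8 and 21.6 CPM in vehicle livers and at 127, 86.7 and 74.2 CPM in insulin livers. Derl3, of the endoplasmic reticulum, was at 52.1, 13.3 and 5.39 CPM in vehicle livers and 45.4, 50.7 and 67.2 CPM in insulin livers. In all 6 of these genes vehicle replicate 1 stood with the insulin livers, apart from vehicle replicates 2 and 3. That follows from their choice by likeness to Saa1 or Orm2.

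The genes most like Hp were Ears2 (0.074), Calr (0.0759), Tor3a (0.0801), Ahcyl2 (0.0861) and Fga (0.0894), where the median gene had 0.494. Fga, which encodes the fibrinogen alpha chain and is itself an acute phase gene, was at 9416, 7558 and 5167 CPM in vehicle livers and at 8635, 8478 and 9163 CPM in insulin livers. Calr, the chaperone calreticulin, was at 1178, 835 and 637 CPM against 991, 1005 and 1167 CPM, and so shared the narrow range of Hp.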
